A study of Arabidopsis thaliana with 6 samples.

Results

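A set of 10 WRKY genes, known for their response to pathogens, wounding and other stresses, was followed through RNA-seq of *Arabidopsis* inflorescences. They are *WRKY6* (AT1G62300), *WRKY11* (AT4G31550), *WRKY18* (AT4G31800), *WRKY22* (AT4G01250), *WRKY33* (AT2G38470), *WRKY40* (AT1G80840), *WRKY46* (AT2G46400), *WRKY53* (AT4G23810), *WRKY60* (AT2G25000) and *WRKY70* (AT3G56400). They were chosen by gene identifier, with earlier results of these data known. The set holds 10 of the 33610 genes in each count file and 10 of the 72 genes that the reference annotation names WRKY. All 10 had counts in every library. The study asked which genes depend on SEPALLATA3 (SEP3), a MADS transcription factor of flower development. It sequenced 6 libraries, 2 for each of 3 genotypes, from poly(A) RNA of inflorescence meristems with young flower buds. The *sep1sep2sep3 SEP3* libraries come from 2 independent lines that express *SEP3* in the triple mutant, called line 1 and line 2 here, and the promoter of that transgene is not given in the sources used here. The other libraries are replicates 1 and 2 of the *sep1sep2sep3* triple mutant and replicates 1 and 2 of the *sep1sep2* double mutant. All 3 genotypes thus carry the *sep1* and *sep2* mutations, all plants were grown side by side in long days, and no library of an unmutated plant was analysed here. In bulk tissue, fewer cells of a type and less RNA per cell cannot be told apart.

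WRKY proteins are plant transcription factors with a conserved WRKY motif and a zinc finger, and they bind the W-box, a short DNA element with the core TTGAC. Many of their genes are switched on within minutes to hours of pathogen recognition, wounding or touch, downstream of calcium signals and mitogen-activated protein kinases, and WRKY proteins in turn bind W-boxes of WRKY genes. Members of the family act as activators and as repressors of defence, often through the salicylic acid and jasmonic acid pathways.

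W-boxes were looked for in the 300 bases before the annotated start of each member, taken from the TAIR10.1 sequence and annotation of RefSeq. The letters searched were TTGACC and TTGACT on both strands, so that a match on the opposite strand reads GGTCAA or AGTCAA. At least 1 match was found for 3 of the 10 members, against 32.3% of 27437 protein-coding genes. *WRKY33* had 3 matches, which 1.57% of the protein-coding genes reach, *WRKY53* had 2, and *WRKY11* had 1. The upstream sequences of these 3 genes are shown together with that of *WRKY40*, the gene with the largest difference between genotypes. It had no match to the letters searched. They are written 5′ to 3′ on the strand of the gene, with the matches in capitals. The window of *WRKY33* is chr2:16107935-16108234 on the plus strand and that of *WRKY40* is chr1:30383261-30383560 on the plus strand. The window of *WRKY53* is chr4:12393983-12394282 on the minus strand and that of *WRKY11* is chr4:15291935-15292234 on the minus strand.
*WRKY33*: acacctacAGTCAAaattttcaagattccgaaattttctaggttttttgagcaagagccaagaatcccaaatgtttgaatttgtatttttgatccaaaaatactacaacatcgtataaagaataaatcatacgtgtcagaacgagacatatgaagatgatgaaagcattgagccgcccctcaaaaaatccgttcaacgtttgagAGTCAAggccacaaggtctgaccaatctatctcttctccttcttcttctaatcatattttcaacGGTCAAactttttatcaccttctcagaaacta
*WRKY53*: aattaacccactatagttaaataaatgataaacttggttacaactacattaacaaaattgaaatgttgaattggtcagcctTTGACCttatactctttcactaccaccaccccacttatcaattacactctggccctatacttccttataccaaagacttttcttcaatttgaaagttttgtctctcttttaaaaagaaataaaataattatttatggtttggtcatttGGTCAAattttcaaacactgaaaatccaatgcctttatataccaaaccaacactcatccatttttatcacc
*WRKY11*: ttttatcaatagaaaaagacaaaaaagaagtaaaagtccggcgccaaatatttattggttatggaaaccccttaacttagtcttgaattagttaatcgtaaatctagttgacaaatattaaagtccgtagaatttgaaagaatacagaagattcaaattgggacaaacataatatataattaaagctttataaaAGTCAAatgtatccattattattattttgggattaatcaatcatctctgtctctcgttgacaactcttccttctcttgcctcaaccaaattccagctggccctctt
*WRKY40*: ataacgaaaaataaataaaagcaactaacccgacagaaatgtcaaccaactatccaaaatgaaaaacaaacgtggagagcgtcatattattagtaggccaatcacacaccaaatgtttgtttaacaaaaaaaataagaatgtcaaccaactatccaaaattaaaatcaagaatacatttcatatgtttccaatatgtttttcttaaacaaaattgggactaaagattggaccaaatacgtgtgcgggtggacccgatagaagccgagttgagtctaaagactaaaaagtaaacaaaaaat
In *WRKY33* the first bases of the matches lay 292, 96 and 32 bases before the start of the gene, all on the opposite strand. In *WRKY53* they lay 219 and 71 bases before it, and in *WRKY11* 106 bases. A match describes these letters only, and the absence of one says nothing of other elements or of sequence outside the window. The core TTGAC, or GTCAA on the opposite strand, also stands unmarked in the windows of *WRKY40* and *WRKY11*, beside letters that were not searched. It also stands in the windows of *WRKY6*, *WRKY22*, *WRKY46* and *WRKY70*, which are not shown. The share of all genes with the core was not computed.

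The libraries held between 24000063 and 31263376 counts, with a median of 24884508.5. Levels are given in CPM, the counts scaled by the TMM-normalized size of each library, and fold changes and false discovery rates (FDR, Benjamini-Hochberg over 25458 genes) are from edgeR's quasi-likelihood test. A gene is called DE where its log2 fold change passed 1 or -1 with an FDR under 0.05. *SEP3* itself had 489 and 332 CPM in the *SEP3* lines, 149.5 and 151 CPM in the libraries labelled *sep1sep2sep3*, and 130.4 and 136 CPM in *sep1sep2*. *SEP3* was thus not lower in the libraries labelled *sep1sep2sep3* than in *sep1sep2* (log2 fold change 0.17, FDR = 0.502 in edgeR's test), and the directions below rest on the labels. The 7 markers of the floral meristem and bud, among them *LFY*, *AP1* and *AG*, were also summed. They gave 663 and 586 CPM in the *SEP3* lines, 786 and 787 CPM in the libraries labelled *sep1sep2sep3*, and 624 and 673 CPM in *sep1sep2*. Of the 7, 1 was DE and higher in the libraries labelled *sep1sep2sep3* than in *sep1sep2*, against 0.939% of all genes. In the *SEP3* lines 1 was DE and lower than in those libraries, against 0.55%.

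Several of the WRKY genes were lower in both genotypes of the triple mutant background than in *sep1sep2*. In the libraries labelled *sep1sep2sep3*, 7 of the 10 members fell relative to *sep1sep2* (*WRKY18*, *WRKY22*, *WRKY33*, *WRKY40*, *WRKY46*, *WRKY53* and *WRKY70*), between 2.39-fold and 18.2-fold, and none rose. Among all 25458 genes tested, 7.3% fell and 0.939% rose in this comparison. In the *SEP3* lines, 5 of the 10 fell relative to *sep1sep2* (*WRKY33*, *WRKY40*, *WRKY46*, *WRKY53* and *WRKY70*), and none rose, against 1.14% and 0.365% of all genes. Between the *SEP3* lines and the libraries labelled *sep1sep2sep3* no member passed the thresholds in edgeR's test, where 5.74% of all genes rose and 0.55% fell. The median log2 fold change of the members was -1.24 for the *SEP3* lines against *sep1sep2* and -1.58 for the libraries labelled *sep1sep2sep3* against *sep1sep2*, and the medians of all genes tested were -0.01 and -0.03. These comparisons share libraries and are not independent of each other. Their size rests in part on one library, *sep1sep2* replicate 1, in which all 10 members were higher than in replicate 2. Without it, 3 of 10 members remained DE and lower in the libraries labelled *sep1sep2sep3*, against 5.6% of the genes, and 3 of 10 in the *SEP3* lines, against 0.457%.

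**Figure D1:**
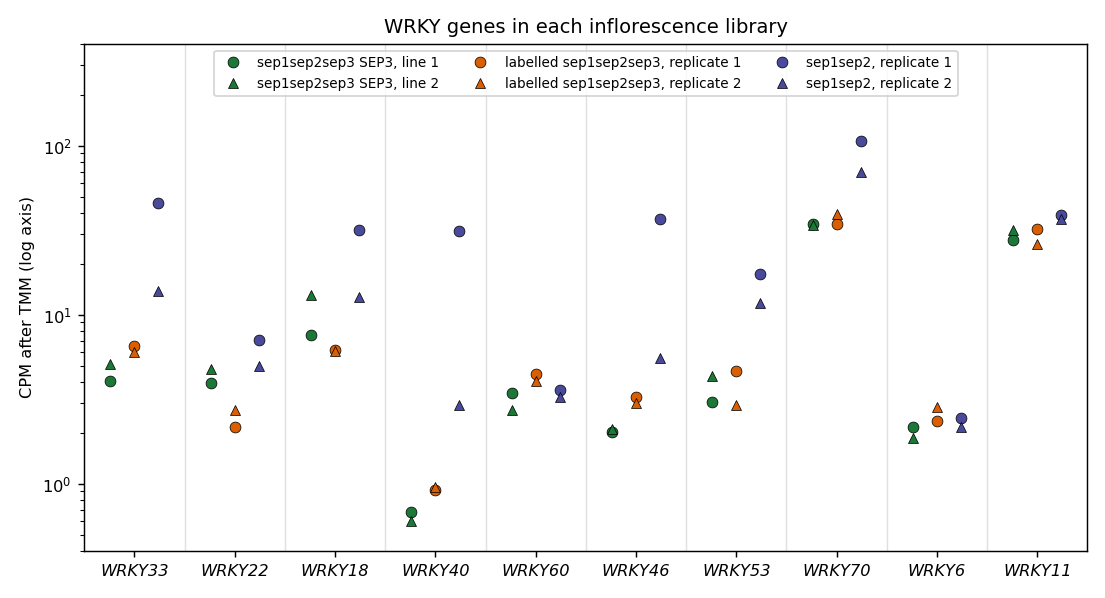
CPM after TMM normalization (log axis) of the 10 WRKY genes in each of the 6 libraries, with circles for line or replicate 1 and triangles for line or replicate 2. The circle of *sep1sep2* replicate 1 is the highest point for 8 of the 10 genes, and *WRKY40* spans from 0.605 CPM in *SEP3* line 2 to 31.2 CPM in *sep1sep2* replicate 1.

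*WRKY33* and *WRKY22* act downstream of pathogen recognition. *WRKY33* (chr2:16108235-16110766, plus strand) is a substrate of the kinases MPK3 and MPK6 and is needed for camalexin synthesis and for resistance to the fungus *Botrytis cinerea*. Its level was 4.05 and 5.08 CPM in *SEP3* lines 1 and 2, 6.56 and 6.04 CPM in replicates 1 and 2 labelled *sep1sep2sep3*, and 46.1 and 13.8 CPM in *sep1sep2* replicates 1 and 2. All 4 libraries of the triple mutant background were below both *sep1sep2* libraries. *WRKY33* fell 6.58-fold in the *SEP3* lines (log2 fold change -2.72 ± 0.39 SE, FDR = 0.0012) and 4.76-fold in the libraries labelled *sep1sep2sep3* (-2.25 ± 0.38, FDR = 0.00076), both relative to *sep1sep2* in edgeR's test. Without *sep1sep2* replicate 1 the log2 fold change was -1.59 in the *SEP3* lines and -1.12 in the libraries labelled *sep1sep2sep3*. In limma-voom on all 6 libraries neither fall passed (FDR = 0.116 in the *SEP3* lines and 0.0647 in the libraries labelled *sep1sep2sep3*).

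*WRKY22* (chr4:522530-524249, minus strand), placed at the end of a kinase cascade that flagellin starts, had another order of genotypes. Its level was 3.93 and 4.76 CPM in the *SEP3* lines, 2.17 and 2.71 CPM in the libraries labelled *sep1sep2sep3*, and 7.13 and 5.0 CPM in *sep1sep2*. The 3 genotypes did not overlap, with the *SEP3* lines in between. *WRKY22* fell 2.47-fold in the libraries labelled *sep1sep2sep3* (log2 fold change -1.31 ± 0.28, FDR = 0.0050 in edgeR's test). This call was lost without *sep1sep2* replicate 1 (-1.02, FDR = 0.0722) and without the first library labelled *sep1sep2sep3* (-1.16, FDR = 0.0562). Between the *SEP3* lines and *sep1sep2* the log2 fold change was -0.48 ± 0.27 (FDR = 0.412), and between the *SEP3* lines and the libraries labelled *sep1sep2sep3* it was 0.82 ± 0.28 (FDR = 0.0774).

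*WRKY18*, *WRKY40* and *WRKY60* form group IIa of the family, whose proteins pair with themselves and each other and, in part redundantly, hold back basal defence. *WRKY40* (chr1:30383561-30385499, plus strand) had the largest difference between genotypes of the 10 genes. It was at 0.676 and 0.605 CPM in the *SEP3* lines, 0.919 and 0.949 CPM in the libraries labelled *sep1sep2sep3*, and 31.2 and 2.91 CPM in *sep1sep2*. The 4 libraries of the triple mutant background lay close together, and the *sep1sep2* libraries lay above them and far apart. *WRKY40* fell 26.4-fold in the *SEP3* lines (log2 fold change -4.72 ± 0.77, FDR = 0.0033) and 18.2-fold in the libraries labelled *sep1sep2sep3* (-4.19 ± 0.74, FDR = 0.0012), in edgeR's test. Neither fall passed the thresholds once *sep1sep2* replicate 1 was left out, with -2.16 (FDR = 0.0577) in the *SEP3* lines and -1.62 (FDR = 0.0658) in the libraries labelled *sep1sep2sep3*. The call in the *SEP3* lines was also lost without *SEP3* line 1 (-4.81, FDR = 0.0508) or line 2 (-4.65, FDR = 0.0594).

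*WRKY18* (chr4:15382777-15385100, plus strand) was at 7.59 and 13.1 CPM in the *SEP3* lines, 6.18 and 6.10 CPM in the libraries labelled *sep1sep2sep3*, and 31.6 and 12.7 CPM in *sep1sep2*. *SEP3* line 2 lay above *sep1sep2* replicate 2, so these 2 genotypes overlapped, while both libraries labelled *sep1sep2sep3* lay below all others. *WRKY18* fell 3.60-fold in the libraries labelled *sep1sep2sep3* relative to *sep1sep2* (log2 fold change -1.85 ± 0.34, FDR = 0.00145 in edgeR's test), while in limma-voom it did not pass (FDR = 0.0562). Without *sep1sep2* replicate 1 this log2 fold change was -1.03. In the *SEP3* lines the log2 fold change of -1.10 ± 0.32 relative to *sep1sep2* did not pass (FDR = 0.0752). It was -0.28 without *sep1sep2* replicate 1 and -1.61 without replicate 2. *WRKY60* (chr2:10629662-10631413, plus strand) was at 3.44 and 2.74 CPM in the *SEP3* lines, 4.43 and 4.07 CPM in the libraries labelled *sep1sep2sep3*, and 3.56 and 3.25 CPM in *sep1sep2*. It is the one member with both libraries labelled *sep1sep2sep3* above both of *sep1sep2*, by a log2 fold change of 0.32 ± 0.27 that did not pass edgeR's test (FDR = 0.512).

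*WRKY46*, *WRKY53* and *WRKY70* belong to group III and act in basal resistance and the salicylic acid response. *WRKY53* is also known as a regulator of leaf senescence, and *WRKY70* as a node between salicylic acid and jasmonic acid signalling. *WRKY46* (chr2:19043411-19044955, minus strand) was at 2.03 and 2.1 CPM in the *SEP3* lines, 3.26 and 2.98 CPM in the libraries labelled *sep1sep2sep3*, and 36.7 and 5.58 CPM in *sep1sep2*. As for *WRKY40*, the *sep1sep2* libraries lay above the other 4 and far from each other. *WRKY46* fell 10.3-fold in the *SEP3* lines (log2 fold change -3.36 ± 0.58, FDR = 0.0046) and 6.79-fold in the libraries labelled *sep1sep2sep3* (-2.76 ± 0.56, FDR = 0.0031), in edgeR's test. Both calls were lost when *sep1sep2* replicate 1 was left out, with -1.42 (FDR = 0.0525) in the *SEP3* lines and -0.83 (FDR = 0.145) in the libraries labelled *sep1sep2sep3*. The call in the *SEP3* lines was also lost without *SEP3* line 1 (-3.33, FDR = 0.0590) or line 2 (-3.38, FDR = 0.0651), and the call in the libraries labelled *sep1sep2sep3* without replicate 2 labelled *sep1sep2sep3* (-2.70, FDR = 0.0626).

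*WRKY53* (chr4:12392370-12393982, minus strand) was at 3.04 and 4.35 CPM in the *SEP3* lines, 4.64 and 2.92 CPM in the libraries labelled *sep1sep2sep3*, and 17.5 and 11.8 CPM in *sep1sep2*. The *SEP3* lines and the libraries labelled *sep1sep2sep3* overlapped, and both lay well below *sep1sep2*. *WRKY53* fell 3.98-fold in the *SEP3* lines (log2 fold change -1.99 ± 0.28, FDR = 0.00111) and 3.90-fold in the libraries labelled *sep1sep2sep3* (-1.96 ± 0.28, FDR = 0.00020), in edgeR's test. Without *sep1sep2* replicate 1 the log2 fold change was -1.67 in the *SEP3* lines and -1.63 in the libraries labelled *sep1sep2sep3*. Both calls held in all 16 settings tried besides the main one. In 1 of these, with no threshold on the fold change, a call cannot be lost. *WRKY53* shares 341 bases with a gene on the opposite strand, AT4G23800, which had between 7091 and 9025 counts per library against 86 to 442 of *WRKY53*. The study's methods give default settings of featureCounts, which do not use strand, so reads from the shared bases cannot be told apart by strand. On the opposite strand, *WRKY40* shares 51 bases with AT1G80850, and *WRKY33* shares 26 bases with AT2G38480 and 272 bases with AT2G08965, a gene not used here.

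*WRKY70* (chr3:20908711-20910623, minus strand) was at 34.2 and 34.1 CPM in the *SEP3* lines, 34.2 and 39.7 CPM in the libraries labelled *sep1sep2sep3*, and 107 and 69.5 CPM in *sep1sep2*. Both *sep1sep2* libraries lay above the other 4, which had nearly equal levels. *WRKY70* fell 2.59-fold in the *SEP3* lines (log2 fold change -1.37 ± 0.16, FDR = 0.00039) and 2.39-fold in the libraries labelled *sep1sep2sep3* (-1.26 ± 0.16, FDR = 9.04e-05), in edgeR's test. Without *sep1sep2* replicate 1 the log2 fold change was -1.01 in the *SEP3* lines. In the libraries labelled *sep1sep2sep3* it was then -0.90 and missed the threshold on the fold change.

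*WRKY6* and *WRKY11* differed little between genotypes. *WRKY6* (chr1:23016569-23019494, minus strand), known in leaf senescence and in the phosphate starvation response, was at 2.15 and 1.85 CPM in the *SEP3* lines, 2.34 and 2.85 CPM in the libraries labelled *sep1sep2sep3*, and 2.45 and 2.17 CPM in *sep1sep2*. The *SEP3* lines lay just below both *sep1sep2* libraries, and the libraries labelled *sep1sep2sep3* overlapped with them. Its log2 fold change relative to *sep1sep2* was -0.20 ± 0.33 in the *SEP3* lines (FDR = 0.815) and 0.17 ± 0.33 in the libraries labelled *sep1sep2sep3* (FDR = 0.797), in edgeR's test. *WRKY11* (chr4:15289788-15291934, minus strand), a negative regulator of resistance to bacteria, was at 27.5 and 31.6 CPM in the *SEP3* lines, 32.3 and 26.2 CPM in the libraries labelled *sep1sep2sep3*, and 39.1 and 37.0 CPM in *sep1sep2*. All 4 libraries of the triple mutant background lay below *sep1sep2*, by log2 fold changes of -0.37 ± 0.13 in the *SEP3* lines (FDR = 0.155) and -0.38 ± 0.13 in the libraries labelled *sep1sep2sep3* (FDR = 0.0692), which did not pass edgeR's test.

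**Figure D2:**
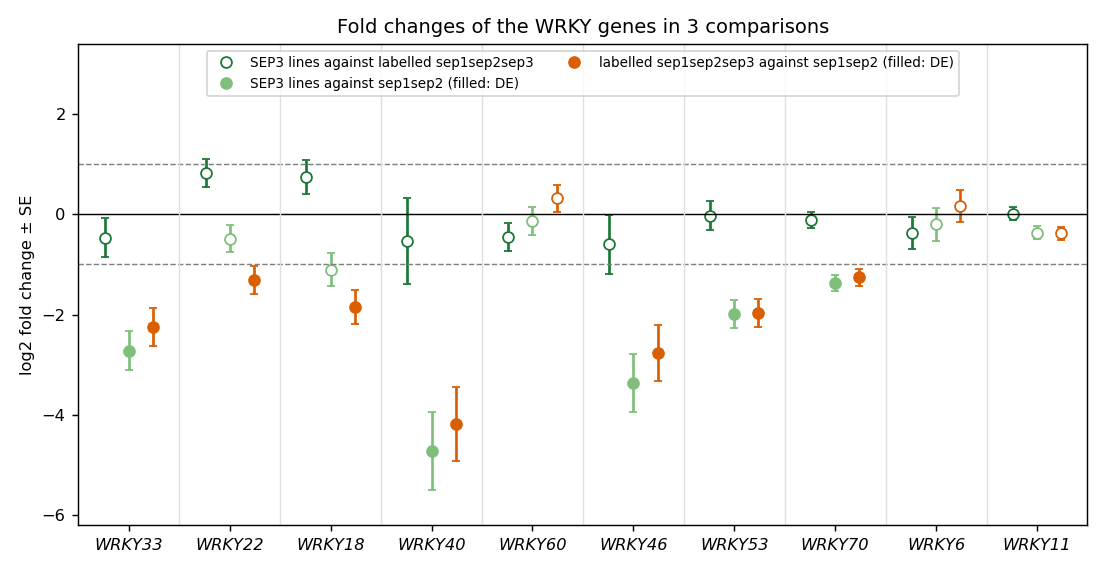
Log2 fold changes with their standard errors of the 10 WRKY genes for the *SEP3* lines against the libraries labelled *sep1sep2sep3*, the *SEP3* lines against *sep1sep2*, and the libraries labelled *sep1sep2sep3* against *sep1sep2*, with filled points for DE genes and dashed lines at the thresholds of 1 and -1. No point of the first comparison is filled, 5 of the second and 7 of the last are, and *WRKY40* lies lowest, at -4.72 for the *SEP3* lines and -4.19 for the libraries labelled *sep1sep2sep3* against *sep1sep2*.

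Expression of *SEP3* in the triple mutant was not accompanied by a call for any of the WRKY genes relative to the libraries labelled *sep1sep2sep3*. The median log2 fold change of the members between the *SEP3* lines and those libraries was -0.24, against 0.02 for all genes. Both *SEP3* lines lay below both libraries labelled *sep1sep2sep3* for 5 members, above them for *WRKY18* and *WRKY22*, and among them for 3. The shares of all genes in these orders were not computed, so these counts describe the members only. None of the 10 passed the thresholds in edgeR's test, DESeq2 or limma-voom. At an unadjusted p under 0.05 edgeR's test gave 2, *WRKY22* and *WRKY18*. The standard error was 0.86 for *WRKY40* and 0.59 for *WRKY46* in the fit of all 6 libraries. It was 0.48 and 0.29 without *sep1sep2* replicate 1, and 0.28 and 0.20 without replicate 2. In both of these fits *WRKY46* had a log2 fold change of -0.60. For *WRKY70*, *WRKY11* and *WRKY53* the log2 fold changes were -0.11 ± 0.16, 0.01 ± 0.13 and -0.03 ± 0.29.

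The 2 *sep1sep2* libraries differed more in these genes than the libraries of the other genotypes did. All 10 members were higher in replicate 1 than in replicate 2. So were 28 of the 57 other WRKY genes with counts and 13 of 14 genes induced quickly by touch, wounding or cold. The share of all genes in this order was not computed, and the median log2 ratio of genes that averaged 1 CPM or more was -0.01. Among the members the difference (CPM + 0.1) was 10.4-fold for *WRKY40*, 6.49-fold for *WRKY46*, 3.31-fold for *WRKY33* and 2.48-fold for *WRKY18*. For *WRKY70*, *WRKY53* and *WRKY22* it was between 1.42-fold and 1.54-fold, and for *WRKY6*, *WRKY60* and *WRKY11* it was at most 1.13-fold. Over 2-fold higher in replicate 1 were thus 4 of 10 members, against 1.58% of the 18703 genes that averaged 1 CPM or more. No member was over 2-fold higher in *SEP3* line 1 than in line 2, where 2.11% of the genes were, or in replicate 1 than in replicate 2 labelled *sep1sep2sep3*, where 1.42% were. The median absolute log2 ratio of the members was 0.24 in the *SEP3* lines (0.15 for all genes), 0.17 in the libraries labelled *sep1sep2sep3* (0.14 for all genes) and 0.60 in *sep1sep2* (0.17 for all genes).

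**Figure D3:**
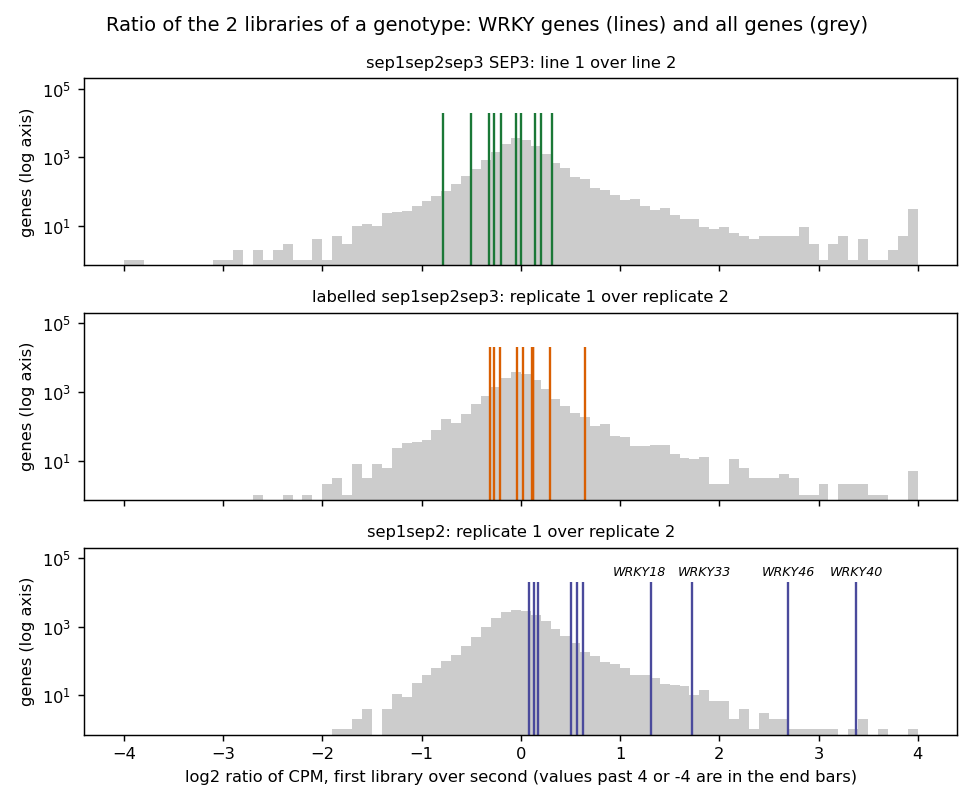
Log2 ratio of CPM between the 2 libraries of each genotype, with grey bars for the 18703 genes that averaged 1 CPM or more (number of genes on a log axis) and a line for each WRKY gene. In *sep1sep2*, *WRKY40*, *WRKY46*, *WRKY33* and *WRKY18* lie in the right tail at 3.38, 2.70, 1.73 and 1.31, and in the other genotypes all 10 lie between -0.78 and 0.65.

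*sep1sep2* replicate 1 was the highest of the 6 libraries for 8 of 10 members, against 13.9% of the genes. *sep1sep2* replicate 2 was above all 4 libraries of the triple mutant background for 7 of 10 members, all except *WRKY6*, *WRKY18* and *WRKY60*. The same held for 10 of the 57 other WRKY genes with counts, and the share of all genes in this order was not computed. Relative to the mean of the libraries labelled *sep1sep2sep3*, it was 3.12-fold higher for *WRKY40* and *WRKY53*, 2.2-fold for *WRKY33*, 2.06-fold for *WRKY18*, 2.05-fold for *WRKY22*, 1.88-fold for *WRKY70* and 1.79-fold for *WRKY46*. Both *SEP3* lines were below both *sep1sep2* libraries for 8 of 10 members, against 23.1% of all genes, and both libraries labelled *sep1sep2sep3* were below them for 8 of 10, against 29.8%. Without replicate 1 the *WRKY40* and *WRKY46* calls were lost in both comparisons, and those of *WRKY33* and *WRKY53* in neither. With 1 *sep1sep2* library left, the spread of that genotype is not measured, so a call kept there is not a test against it.

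**Figure D4:**
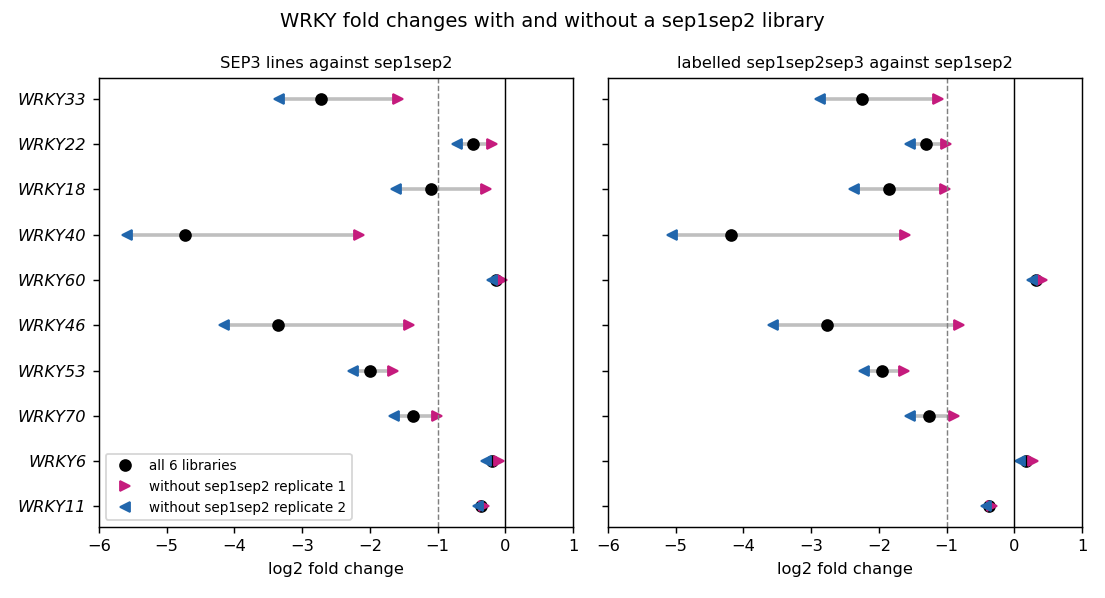
Log2 fold changes of the 10 WRKY genes against *sep1sep2* from all 6 libraries (circles), without *sep1sep2* replicate 1 (right-pointing triangles) and without replicate 2 (left-pointing triangles), with the *SEP3* lines on the left and the libraries labelled *sep1sep2sep3* on the right. Without replicate 1, *WRKY40* moves to -2.16 in the *SEP3* lines and -1.62 in the libraries labelled *sep1sep2sep3*; without replicate 2, to -5.59 in the *SEP3* lines and -5.06 in the libraries labelled *sep1sep2sep3*, and for *WRKY53* all values lie between -2.25 and -1.63.

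Levels of different genes were compared per kilobase of exon (RPKM from the CPM and the RefSeq exon length). *WRKY70* had the highest level of the 10 in each library, at 23.3 and 23.2 RPKM in the *SEP3* lines, 23.3 and 27.0 RPKM in the libraries labelled *sep1sep2sep3*, and 73.0 and 47.3 RPKM in *sep1sep2*. *WRKY11* came next in 5 of 6 libraries, at 15.1 and 17.4 RPKM in the *SEP3* lines and 17.7 and 14.4 RPKM in the libraries labelled *sep1sep2sep3*. In these libraries the other 8 members lay between 0.456 and 6.48 RPKM, and *WRKY33*, *WRKY18* and *WRKY53* overlapped in the libraries labelled *sep1sep2sep3*. In *sep1sep2* replicate 1 the order changed, with *WRKY46* at 27.1, *WRKY40* at 23.6, *WRKY33* at 22.7 and *WRKY11* at 21.5 RPKM after *WRKY70*. In *sep1sep2* replicate 2 *WRKY46* was at 4.12, *WRKY40* at 2.2, *WRKY33* at 6.82 and *WRKY11* at 20.4 RPKM. *WRKY40* was thus the lowest of the 10 in all 4 libraries of the triple mutant background and among the 3 highest in *sep1sep2* replicate 1.

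Of the other 62 WRKY genes, 57 had counts. In the libraries labelled *sep1sep2sep3*, 4 of these 57 fell relative to *sep1sep2* (*WRKY15*, *WRKY43*, *WRKY48* and *WRKY75*), and none rose. Among all genes tested 7.3% fell and 0.939% rose, so the 57 genes lay near the share of all genes. *WRKY15* was at 16.5 and 22.5 CPM in the *SEP3* lines, 13.5 and 14.9 CPM in the libraries labelled *sep1sep2sep3*, and 32.5 and 25.5 CPM in *sep1sep2* (log2 fold change -1.03, FDR = 0.000649 in edgeR's test). It missed the threshold on the fold change without *sep1sep2* replicate 1 (-0.83) or without replicate 1 labelled *sep1sep2sep3* (-0.96). *WRKY48* kept its call in 7 of 16 other settings. *WRKY43* and *WRKY75* had 0 counts in both libraries labelled *sep1sep2sep3* and at most 46 in any other. Both rose in the *SEP3* lines relative to those libraries, as 2 of the 57 genes, against 5.74% of all genes. The rise held in 9 of 16 settings for *WRKY43* and in 12 of 15 for *WRKY75*, and the fall relative to *sep1sep2* in 10 of 16 and 12 of 15. *WRKY54*, a group III gene close to *WRKY70*, fell in the *SEP3* lines relative to *sep1sep2*, with 8.48 and 7.10 CPM in the *SEP3* lines against 18.1 and 13.6 CPM in *sep1sep2* (-1.02, FDR = 0.00691), and this call was lost without *sep1sep2* replicate 1 (-0.78, FDR = 0.0817). *WRKY54* was the only 1 of the 57 to fall in that comparison, against 1.14% of all genes. The median log2 fold change of the 57 genes was 0 in both comparisons with *sep1sep2*.

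Genes of the pathways in which WRKY proteins act were examined as lists, chosen with earlier results of these data known. Their counts beside the shares of all genes are thus descriptions and not tests. Genes induced quickly by touch, wounding or cold, such as *TCH4* and *ZAT10*, moved with the members relative to *sep1sep2*. In the *SEP3* lines 12 of 14 fell, against 1.14% of all genes. In the libraries labelled *sep1sep2sep3* 11 of 14 fell, against 7.3%. Their median log2 fold change was -2.53 in the *SEP3* lines and -2.57 in the libraries labelled *sep1sep2sep3*. None passed the thresholds between the *SEP3* lines and the libraries labelled *sep1sep2sep3* in edgeR's test, where none had an unadjusted p under 0.05, nor in DESeq2 or limma-voom. Relative to *sep1sep2*, limma-voom called 2 of the 14 lower in the *SEP3* lines and 9 in the libraries labelled *sep1sep2sep3*. *ZAT10*, a zinc finger repressor induced by cold and wounding, was at 0.369 and 0.968 CPM in the *SEP3* lines, 0.418 and 0.542 CPM in the libraries labelled *sep1sep2sep3*, and 15.7 and 5.25 CPM in *sep1sep2*. *TCH4*, a touch-induced cell wall enzyme, was at 2.95 and 5.68 CPM in the *SEP3* lines, 1.84 and 3.59 CPM in the libraries labelled *sep1sep2sep3*, and 54.0 and 17.8 CPM in *sep1sep2*. The summed level of the 14 genes was 61.2 and 66.4 CPM in the *SEP3* lines, 63.8 and 55.6 CPM in the libraries labelled *sep1sep2sep3*, and 353 and 147 CPM in *sep1sep2*, so these genes too were highest in *sep1sep2* replicate 1. Without that replicate the median log2 fold change of the 14 genes shrank to -1.66 in the *SEP3* lines and -1.59 in the libraries labelled *sep1sep2sep3*. The part of *sep1sep2* replicate 1 in the fall of the WRKY genes was measured by leaving it out, and the source of its higher levels was not tested.

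Immune signalling genes moved less. Beside the counts below, 1.14% of all genes fell in the *SEP3* lines and 7.3% in the libraries labelled *sep1sep2sep3*, relative to *sep1sep2*. Of 12 immune receptor and MAP kinase genes only *MPK3*, a kinase that phosphorylates WRKY33, passed the thresholds in edgeR's test. It was at 21.1 and 23.1 CPM in the *SEP3* lines, 26.0 and 26.3 CPM in the libraries labelled *sep1sep2sep3*, and 103 and 42.7 CPM in *sep1sep2*, with a log2 fold change of -1.73 (FDR = 0.00233) in the *SEP3* lines and -1.48 (FDR = 0.00135) in the libraries labelled *sep1sep2sep3*. It was no longer DE without *sep1sep2* replicate 1, at -0.94 in the *SEP3* lines and -0.70 in the libraries labelled *sep1sep2sep3*. Of the VQ proteins that bind WRKY33, *SIB1* and *SIB2* fell in the *SEP3* lines relative to *sep1sep2* (-1.79, FDR = 0.00619, and -1.15, FDR = 0.0458), which was lost without *sep1sep2* replicate 1 and for *SIB2* held in only 3 of 16 settings, and *MKS1*, with 6.36 to 9.07 CPM, did not pass. Of 12 genes of salicylic acid synthesis and response, the regulators *SARD1* and *CBP60g* fell in both comparisons with *sep1sep2* and *NIMIN1* in that of the libraries labelled *sep1sep2sep3*. *SARD1* was at 2.40 and 4.35 CPM in the *SEP3* lines, 3.76 and 2.61 CPM in the libraries labelled *sep1sep2sep3*, and 36.1 and 8.91 CPM in *sep1sep2*. Without *sep1sep2* replicate 1 its log2 fold change was -1.47 in the libraries labelled *sep1sep2sep3* and -1.40 in the *SEP3* lines. The *SARD1* call in the *SEP3* lines was then lost, *CBP60g* was DE in neither, and *NIMIN1* missed the threshold on the fold change (-0.89). *ICS1*, which encodes a salicylic acid synthesis enzyme, stood at 14.7 and 12.1 CPM in the *SEP3* lines, 16.0 and 18.9 CPM in the libraries labelled *sep1sep2sep3*, and 11.4 and 11.3 CPM in *sep1sep2*, and was not DE. In the libraries labelled *sep1sep2sep3* it lay above *sep1sep2* with an FDR below the limit and missed only the threshold on the fold change, in edgeR's test. *PR1*, the usual marker of the salicylic acid response, had at most 2 counts in any library.

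Genes that mark the outputs of WRKY33 and of flagellin perception were mostly close to the floor. The same shares of all genes, 1.14% and 7.3%, stand beside the falls given here. Beside the rises in the *SEP3* lines relative to the libraries labelled *sep1sep2sep3* stands a share of 5.74%. *PAD3*, the last enzyme of camalexin synthesis, had at most 8 counts and the flagellin marker *FRK1* at most 4 counts in any library, which does not allow a comparison. Of 7 camalexin and ethylene genes, 1 fell in both comparisons with *sep1sep2*, *ACS6*, an ethylene synthesis enzyme that MPK3 and MPK6 phosphorylate. It was at 15.0 and 10.6 CPM in the *SEP3* lines, 18.5 and 17.97 CPM in the libraries labelled *sep1sep2sep3*, and 70.01 and 32.8 CPM in *sep1sep2*. Without *sep1sep2* replicate 1 its log2 fold change was -1.34 in the *SEP3* lines and -0.83 in the libraries labelled *sep1sep2sep3*. The latter missed the threshold on the fold change. Of 7 flagellin-induced genes with counts, 4 fell in the libraries labelled *sep1sep2sep3* (*PHI1*, *PUB22*, *PUB23* and *CYP81F2*). The calls of *PHI1*, *PUB22* and *CYP81F2* were lost without *sep1sep2* replicate 1. *PUB23*, a ubiquitin ligase that dampens immune signalling, was DE and higher in the *SEP3* lines than in the libraries labelled *sep1sep2sep3*. No member was DE there, though *WRKY18* and *WRKY22* also lay higher in both lines. *PUB23* had 6.57 and 3.31 CPM against 0.668 and 0.746 CPM (log2 fold change 2.80, FDR = 7.04e-05 in edgeR's test), and it was at 8.87 and 8.49 CPM in *sep1sep2*. The *PUB23* call held in 16 of 16 other settings. *PHI1* and *CYP81F2*, both under 2 CPM, also rose, but these calls held in only 8 of 16 and 7 of 15 settings and were lost when single libraries were left out. Of 5 senescence genes with counts, *NAP* and *ORE1* fell in the libraries labelled *sep1sep2sep3*, *ORE1* rose in the *SEP3* lines relative to those libraries, and *SAG13* had at most 32 counts. Both *ORE1* calls held in 16 of 16 settings, and the *NAP* call in 10 of 16, without *sep1sep2* replicate 1 at -0.70 (FDR = 0.312).

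**Figure D5:**
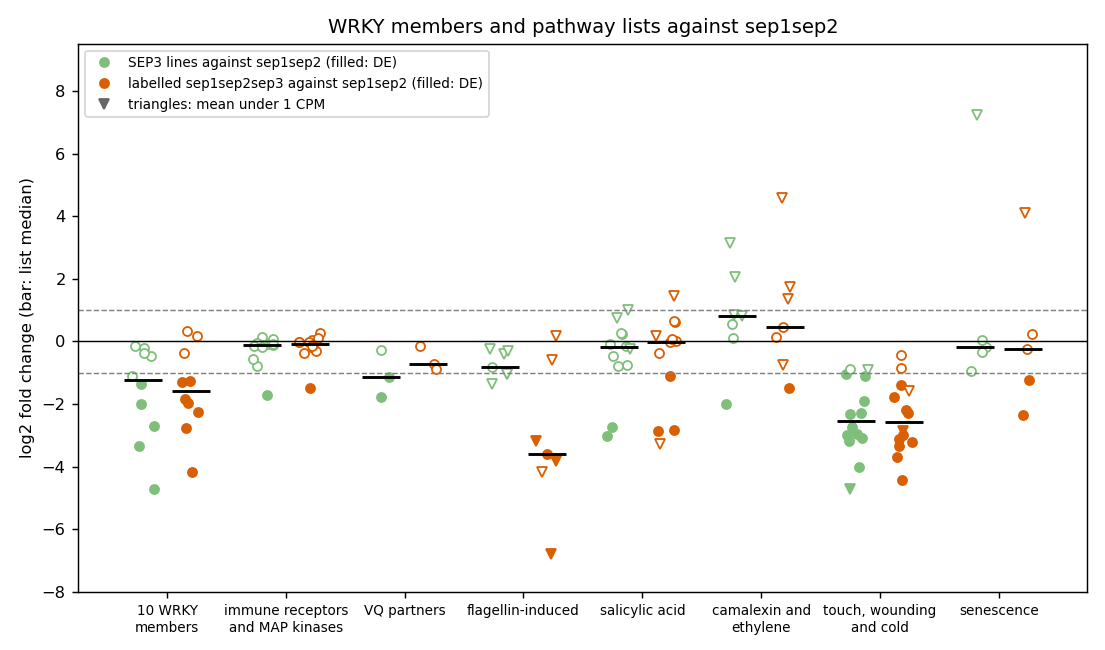
Log2 fold changes against *sep1sep2* of the 10 WRKY genes and of the genes of 7 pathway lists in the *SEP3* lines (left in each pair) and in the libraries labelled *sep1sep2sep3* (right), with filled symbols for DE genes, a bar at the median of each list and triangles for genes with a mean under 1 CPM, whose fitted values rest on few counts. In the *SEP3* lines the medians lie at -1.24 for the WRKY genes, -2.53 for genes induced by touch, wounding or cold and -0.12 for immune receptors and MAP kinases, and in the libraries labelled *sep1sep2sep3* at -1.58, -2.57 and -0.07.

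The genes most like the members were found by Pearson correlation, over the 6 libraries, of log2(CPM + 1) with the mean of the members, among 15557 genes that averaged 5 CPM or more. They were *PAP1* (AT2G01180, a phosphatidic acid phosphatase, r = 0.997), AT4G29780 (r = 0.997), *OPCL1* (a CoA ligase of jasmonate synthesis, r = 0.997), *MPK3* (r = 0.995) and *AOC3* (an allene oxide cyclase of jasmonate synthesis, r = 0.993). AT4G29780 was at 9.64 and 12.5 CPM in the *SEP3* lines, 11.5 and 12.4 CPM in the libraries labelled *sep1sep2sep3*, and 101 and 31.6 CPM in *sep1sep2*. *PAP1* spanned less, with 7.74 and 8.22 CPM in the *SEP3* lines, 8.27 and 8.48 CPM in the libraries labelled *sep1sep2sep3*, and 17.98 and 11.7 CPM in *sep1sep2*. These values describe likeness over 6 libraries of 3 genotypes, in which *sep1sep2* replicate 1 has the largest weight.

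Cell type markers also differed between the genotypes. The summed level of 14 tapetum and pollen wall genes was 3138 and 1782 CPM in the *SEP3* lines, 264 and 187 CPM in the libraries labelled *sep1sep2sep3*, and 2792 and 3339 CPM in *sep1sep2*. All 14 fell in the libraries labelled *sep1sep2sep3* relative to *sep1sep2*, against 7.3% of all genes. All 14 rose in the *SEP3* lines relative to those libraries, against 5.74%. None of the 14 was DE between the *SEP3* lines and *sep1sep2* in edgeR's test, in DESeq2 or in limma-voom, and 3 had an unadjusted p under 0.05 in edgeR's test, while 5 of the 10 WRKY genes fell in that comparison. Carpel and ovule markers showed the same order, with 8 of 10 lower in the libraries labelled *sep1sep2sep3*, against 7.3% of all genes. In the *SEP3* lines 7 of 10 were higher relative to those libraries, against 5.74%. Green tissue markers summed to 9950.4 and 8205 CPM in the *SEP3* lines, 14447 and 17700.4 CPM in the libraries labelled *sep1sep2sep3*, and 11549 and 11343 CPM in *sep1sep2*. The part of such shifts in the fall of the WRKY genes in the libraries labelled *sep1sep2sep3* was not tested.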

How the data were processed

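RNA-seq reads of 6 inflorescence libraries, sequenced as read pairs of 150 bases, were mapped by the authors to TAIR10 with STAR and counted per gene with featureCounts at its default settings, which do not use strand. The authors deposited whole-number counts of 33610 genes per library without normalization. In each library 85.9 to 88.3% of counts up to 20 were even numbers, so dividing all counts by 2 was tried as an alternative. Software versions are not given in the sources used here. The 2 deposited comparison tables hold the authors' fold changes, mean log2 CPM, F statistics, p-values and FDR, and their 10 columns of values were not used. Wild-type libraries were not analysed here.

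All 6 libraries were fitted together with edgeR 4.0.16 (limma 3.58.1, R 4.3.3) after TMM normalization, with a mean per genotype, edgeR's default prior count (0.125) and its quasi-likelihood test with Benjamini-Hochberg adjustment over the 25458 genes with a count. Standard errors were computed as the fold change over the root of its F statistic. The fit was checked on simulated counts. Alternatives were other size factors, filters on low counts, DESeq2 1.42.0, limma-voom, only the libraries compared, a replicate block, halved counts, no threshold on the fold change, and leaving out each library. The members and lists were chosen with earlier results of these data known, and the genes named are all members, defining genes of each list, list genes past the thresholds and the 5 genes most like the members. A share of the TAIR10.1 promoters with a W-box was computed over all protein-coding genes. Apart from the *SEP3* lines, nothing in the labels says that replicates came from separate cultures, so the p-values measure only the spread between these libraries. The libraries of each genotype differed beyond sampling noise. Read counts are not independent molecules, so statements on depth cover counting error only.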

Additional observations from a re-analysis of the deposited data

How the results depend on the processing

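The count of members past the thresholds was recomputed in 16 other settings. In 1 of them, with no threshold on the fold change, a call of the main fit cannot be lost. For the libraries labelled *sep1sep2sep3* against *sep1sep2* it was 7, with 3 in limma-voom and 3 to 7 when one library was left out. For the *SEP3* lines against *sep1sep2* it was 5, with 2 in limma-voom, 3 with filterByExpr, 3 with over 1 CPM asked of at least 2 libraries, and 3 to 6 when one library was left out. For the *SEP3* lines against the libraries labelled *sep1sep2sep3* it was 0 in every setting. Where one library was left out, its genotype had 1 library and no measured spread, so those counts are not tests against that spread. With a replicate block the counts were 7, 5 and 0. The replicate numbers did not pair the libraries, with correlations of -0.09, -0.04 and 0.04 between the deviations of same-numbered libraries.

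The direction changed only for small fold changes. Between the *SEP3* lines and the libraries labelled *sep1sep2sep3*, the log2 fold change of *WRKY53* was 0.0576 with library totals only and 0.0046 with the replicate block, and it ranged from -0.33 to 0.34 when one library was left out. That of *WRKY11* then ranged from -0.13 to 0.17. That of *WRKY60* between the *SEP3* lines and *sep1sep2* ranged from -0.31 to 0.014. The cause of these changes was not tested. Library totals without TMM moved the median of all genes by about 0.1 between the *SEP3* lines and the libraries labelled *sep1sep2sep3* (0.11 against 0.02). The calls of *WRKY53* in both comparisons with *sep1sep2* and of *WRKY70* in the *SEP3* lines held in 16 of 16 settings. In limma-voom the calls of *WRKY33*, *WRKY40* and *WRKY46* were lost in both comparisons and that of *WRKY18* in the libraries labelled *sep1sep2sep3*. With 2 libraries per genotype, a library that stands apart cannot be told from the spread of its genotype, and *WRKY40* had only 15 to 28 counts in the 4 libraries of the triple mutant background.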
